A study of Homo sapiens with 12 samples.

Results

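The 6 entries described here are the solute carrier genes SLC12A7, SLC9A3, SLC1A3, SLC39A3 and SLC25A22 and the antisense RNA SLC9A3-AS1. They were chosen by symbol among genes that lie in chromosome stretches where the names and the reads of the deposited tables match, on 5p, 11p and 19p. They are 6 of 61498 entries, and all 6 passed the filter on low values, as did 10800 entries of the whole table. RNA was sequenced from derivatives of HaCaT, an established human keratinocyte line, to profile expression under oxidative stress.

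Of the 4 derivatives, shMLL1 carried a short hairpin RNA that targets MLL1, a methyltransferase of histone H3 encoded by KMT2A. In shUTX the target was UTX, a demethylase of histone H3 encoded by KDM6A, and in shNRF2 it was NRF2, a transcription factor of antioxidant genes encoded by NFE2L2. The fourth, shControl, carried a control hairpin and is labelled wild type. Each derivative was exposed for 24 h to 100 µM hydrogen peroxide (H2O2), exposed for 24 h to 25 µg/mL cerium oxide nanoparticles (CeO2) or left untreated. Each of the 12 combinations was 1 library, with no replicate of any combination, and each knockdown was made as 1 derivative. The sources used here do not give the promoter that drives the hairpins or whether a derivative is 1 clone. The labels also leave unsaid whether cultures were separate, and p-values then reflect only the variation between these 12 libraries, which may be technical.

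Total counts ran from 5388335 in untreated shUTX to 7670446 in CeO2-exposed shNRF2 cells. Levels are given in CPM, the count scaled to a TMM-adjusted library size of 1e+06 (TMM is a scaling that sets the bulk of genes level between libraries). The adjustment factor of the untreated shControl library was 0.914, against 0.967 to 1.05 for the other 11 libraries. Names could not be trusted across the whole table: of 739 genes that every cell uses, 237 had no count. All 33 of them in the matched stretches reached 30 CPM, but the stretches were drawn by that same mark, so this is no separate check. Outside the stretches 138 of 706 reached it, and the 11p stretch rests on 3 such genes. Other coding genes, not used to draw the stretches, reached 1 CPM in 65.7% of cases inside and 32.9% outside. The silenced genes lie outside these stretches. The KMT2A entry held 96.4, 34.6 and 32.8 CPM in H2O2-exposed, CeO2-exposed and untreated shMLL1 cells, against 472, 473 and 508 CPM in the corresponding shControl cells. In the same order of treatments, the KMT2A entry held 346, 299 and 328 CPM in shUTX and 563, 443 and 457 CPM in shNRF2 cells. The KDM6A entry had 0 to 1 count in shUTX, 5 to 6 in shControl, and 4 to 5 in shMLL1 and shNRF2 libraries. The NFE2L2 entry had 0 counts in every shNRF2 library and 1 to 4 in shMLL1 and shUTX libraries. In shControl cells it had 12 counts after H2O2, 16 after CeO2 and 1 in the untreated library. Of 14 keratinocyte markers only AQP3 (271 CPM) and TINCR (32.4 CPM) lie in matched stretches. Outside the stretches KRT10 was listed at 134, KRT14 at 61.9, KRT1 at 7.43, SFN at 4.10 and PKP1 at 2.17 CPM. TP63 was listed at 0.371, CDH1 at 0.556 and IVL at 0.0609 CPM, and KRT5, DSG3, DSC3 and ITGA6 at 0. In all, 7 of the 14 had a mean of at least 1 CPM, but the names outside the stretches could not be trusted. The same holds for the lists of other cell types, whose members all lie outside the stretches: the summed level of 4 immune markers was 7.78 to 14.3 CPM in shMLL1, 5.75 to 8.77 in shUTX, 12.02 to 14.7 in shNRF2 and 6.03 to 13.1 in shControl cells, and that of fibroblast, melanocyte or endothelial markers was at most 2.55 CPM in a library.

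Solute carriers are membrane proteins that move ions, amino acids, metals and metabolites across the plasma membrane or the membranes of organelles. Cotransporters and exchangers of the plasma membrane use the gradients of sodium, potassium or protons, and so take part in setting cell volume and intracellular pH. Carriers of the inner mitochondrial membrane bring substrates such as glutamate into the matrix. In skin, the epidermis depends on such transporters for volume control, zinc supply and amino acid uptake.

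In short, the 4 entries on 5p differed most among the derivatives, and the knockdowns did not move them alike. SLC9A3-AS1 was 5.90-fold lower in shMLL1 than in shControl cells and 1.67-fold lower in shUTX cells. SLC12A7 fell in shMLL1 cells (log2 change -0.60 ± 0.08, SE) and rose in shUTX cells (0.65 ± 0.08), SLC9A3 rose in shUTX cells (0.70 ± 0.11), and SLC1A3 fell in shMLL1 cells (-0.56 ± 0.08). On 5p as a whole, other coding genes had a median log2 change of -0.46 in shMLL1 cells, from which SLC12A7 and SLC1A3 stood only -0.14 and -0.10 away. None of the 6 passed edgeR's test in shNRF2 cells against shControl, where 5.33% of all entries did, or after either agent, where 0.0% (H2O2) and 0.0185% (CeO2) did.

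Coordinates are on GRCh38, from GENCODE release 29. SLC12A7 (ENSG00000113504) encodes the potassium-chloride cotransporter KCC4 and lies on the minus strand of chromosome 5 from 1050376 to 1112035. SLC9A3 (ENSG00000066230) encodes the sodium-proton exchanger NHE3 and lies on the minus strand of chromosome 5 from 470458 to 524332. SLC9A3-AS1 (ENSG00000225138) is a processed transcript on the plus strand inside the SLC9A3 gene, from 473236 to 480884. SLC1A3 (ENSG00000079215) encodes the glutamate and aspartate transporter EAAT1, also called GLAST, and lies on the plus strand of chromosome 5 from 36606355 to 36688334. SLC39A3 (ENSG00000141873) encodes the zinc importer ZIP3 and lies on the minus strand of chromosome 19 from 2732204 to 2740152. SLC25A22 (ENSG00000177542) encodes a mitochondrial glutamate carrier and lies on the minus strand of chromosome 11 from 790475 to 798333.

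Some of these genes share exon bases with others, and the sources used here do not give whether reads were counted by strand. SLC9A3 and SLC9A3-AS1 share 830 exon bases, which are 14.7% of the SLC9A3 exons and 19.3% of the antisense exons. SLC9A3 also shares 839 exon bases (14.9% of its exons) with EXOC3 on the opposite strand, which had 303 CPM. A further overlap, with PP7080 on the same strand, holds 2363 bases, 41.9% of the SLC9A3 exons and 85.4% of the PP7080 exons. PP7080 had 0.219 CPM. Levels and changes of SLC9A3 and SLC9A3-AS1 are therefore uncertain to the extent that reads of 1 gene were counted for the other. They are also uncertain if reads on shared bases were left uncounted, and levels per kilobase divide by all exon bases. SLC39A3 shares 436 exon bases with ENSG00000267001 (2.07 CPM) on its own strand. SLC12A7, SLC1A3 and SLC25A22 share no exon bases with another annotated gene.

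To see how the start sites of the 5p entries differ, the RefSeq promoter windows of 250 bases before and 50 after a start (GRCh38.p14) were read for all 6 entries, 11 windows in all. They are written 5′ to 3′ on the strand of the gene, with each CG dinucleotide in capitals. The window of SLC9A3-AS1 is chr5:472986-473285 on the plus strand, that of SLC9A3 chr5:524400-524699 on the minus strand, that of SLC12A7 chr5:1112014-1112313 on the minus strand, and the one shown for SLC1A3, of its 3, is chr5:36606356-36606655 on the plus strand, nearest to the GENCODE start.
SLC9A3-AS1: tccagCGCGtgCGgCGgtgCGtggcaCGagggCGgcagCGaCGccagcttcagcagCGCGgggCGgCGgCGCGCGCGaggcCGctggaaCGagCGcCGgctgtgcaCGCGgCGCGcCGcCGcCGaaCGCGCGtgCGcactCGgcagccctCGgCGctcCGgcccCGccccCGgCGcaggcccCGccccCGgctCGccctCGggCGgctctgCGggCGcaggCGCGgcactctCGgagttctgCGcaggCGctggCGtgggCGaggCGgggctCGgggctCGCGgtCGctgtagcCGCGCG
SLC9A3: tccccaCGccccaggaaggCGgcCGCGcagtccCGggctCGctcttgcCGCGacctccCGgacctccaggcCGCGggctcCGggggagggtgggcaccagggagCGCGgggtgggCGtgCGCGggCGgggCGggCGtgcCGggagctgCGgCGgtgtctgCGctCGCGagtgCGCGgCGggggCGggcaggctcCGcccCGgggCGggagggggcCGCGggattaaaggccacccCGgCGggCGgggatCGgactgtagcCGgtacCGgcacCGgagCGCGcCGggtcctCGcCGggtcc
SLC12A7: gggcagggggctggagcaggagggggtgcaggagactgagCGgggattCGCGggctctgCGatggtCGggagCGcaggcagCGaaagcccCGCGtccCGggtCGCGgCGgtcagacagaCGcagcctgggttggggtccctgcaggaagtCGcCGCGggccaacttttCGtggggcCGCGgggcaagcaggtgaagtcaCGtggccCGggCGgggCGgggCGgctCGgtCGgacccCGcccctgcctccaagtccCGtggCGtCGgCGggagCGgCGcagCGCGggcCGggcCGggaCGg
SLC1A3: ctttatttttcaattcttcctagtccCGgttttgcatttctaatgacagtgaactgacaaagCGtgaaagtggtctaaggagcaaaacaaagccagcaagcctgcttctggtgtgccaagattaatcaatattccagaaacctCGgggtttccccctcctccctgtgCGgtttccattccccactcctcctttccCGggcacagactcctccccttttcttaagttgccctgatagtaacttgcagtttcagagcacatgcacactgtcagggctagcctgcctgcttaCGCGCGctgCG

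The SLC9A3-AS1 window held 61 CG dinucleotides, a number that 0.0626% of all 35116 windows reached, and the SLC9A3 window held 47, reached by 2.41%. SLC12A7 followed with 39, reached by 8.71%, while the SLC1A3 window held 9, below the median of 14 over all windows. The window of SLC39A3 nearest to its GENCODE start held 25 and that of SLC25A22 held 41. The core of the antioxidant response element that NRF2 binds, written TGACNNNGC and searched on both strands, occurred once in the SLC1A3 window shown and once in the third of the 4 SLC25A22 windows. These are 2 of the 11 windows read, and the motif occurred in 13.3% of all windows. A match is a description of these letters and not a site of binding.

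Per kilobase of exon, SLC25A22 and SLC1A3 were the most abundant of the 6, with means of 139 and 125 CPM per kilobase over the 12 libraries. Their ranges overlapped, from 106 to 167 and from 82.8 to 179 CPM per kilobase. SLC12A7 and SLC39A3 came next with means of 30.2 and 27.2 CPM per kilobase and also overlapped, from 17.0 to 50.4 and from 21.6 to 37.4. SLC9A3-AS1 and SLC9A3 were lowest, with means of 6.30 and 6.15 CPM per kilobase and ranges of 1.51 to 10.9 and 4.33 to 9.75. Over the 12 libraries the highest level was 7.23 times the lowest for SLC9A3-AS1, 2.96 times for SLC12A7, 2.25 times for SLC9A3, 2.16 times for SLC1A3, 1.73 times for SLC39A3 and 1.59 times for SLC25A22.

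**Figure D1:**
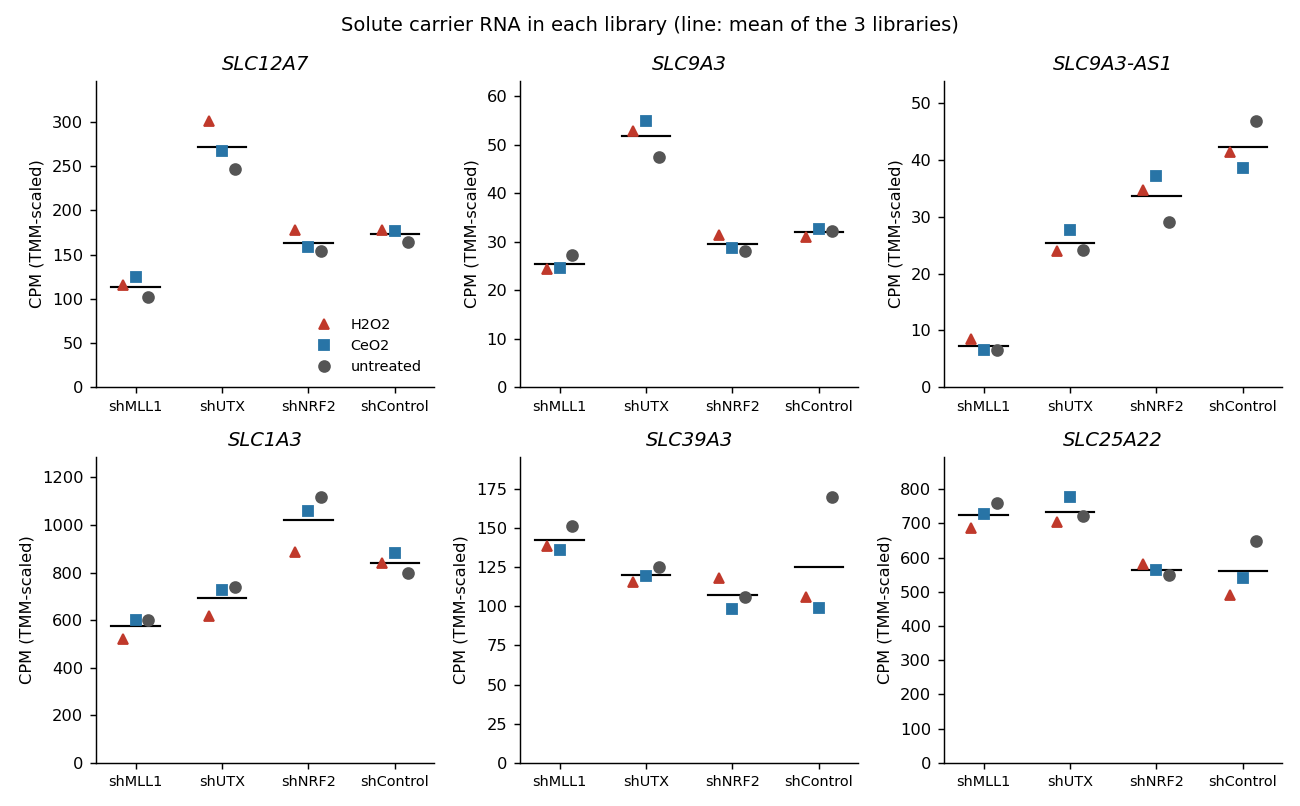
TMM-scaled CPM (linear axes from 0) of the 6 entries in each of the 12 libraries, by derivative, with 1 point for each treatment and a line at the mean of the 3 libraries. SLC9A3-AS1 lies between 6.48 and 8.53 CPM in shMLL1 cells and between 38.6 and 46.9 CPM in shControl cells, and SLC39A3 stands at 170 CPM in untreated shControl cells.

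Each knockdown was compared with shControl across the 3 treatments, to ask which of these transporter RNAs depend on the silenced regulator. A single additive model of derivative and treatment was fitted to all 12 libraries with edgeR's quasi-likelihood test (two-sided, Benjamini-Hochberg adjustment over the 10800 entries, threshold 0.05), and errors of log2 changes are SE. In shMLL1 cells 4 of the 6 entries passed, 1 higher and 3 lower, where 12.2% of all entries passed (5.38% higher, 6.84% lower). In shUTX cells 5 of 6 passed, 3 higher and 2 lower, against 26.3% of all entries (12.6% higher, 13.7% lower). In shNRF2 cells 0 of 6 passed with edgeR and 0 with DESeq2, against 5.33% of all entries by edgeR. There 2 of the 6 had an unadjusted p under 0.05 by edgeR, as had 2172 of the 10800 entries. The median log2 change of the 6 was -0.44 in shMLL1, 0.18 in shUTX and -0.10 in shNRF2 cells, against 0.01, 5.47e-05 and 0.01 over all entries. These 3 comparisons share the shControl libraries and are given side by side. In bulk RNA, fewer expressing cells and less RNA per cell cannot be told apart.

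The potassium-chloride cotransporter gene SLC12A7 moved in opposite directions in 2 of the knockdowns. It had 115, 125 and 102 CPM in H2O2-exposed, CeO2-exposed and untreated shMLL1 cells, 301, 268 and 247 CPM in shUTX cells, 178, 158 and 154 CPM in shNRF2 cells, and 178, 176 and 164 CPM in shControl cells. All shMLL1 libraries were below, and all shUTX libraries above, every library of the other derivatives, while shNRF2 and shControl libraries overlapped. The log2 change over shControl was -0.60 ± 0.08 in shMLL1 (adjusted p = 1.98e-04) and 0.65 ± 0.08 in shUTX (adjusted p = 4.83e-05). In shNRF2 cells it was -0.08 ± 0.08 (adjusted p = 0.608), with a 95% interval from -0.26 to 0.09.

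The sodium-proton exchanger gene SLC9A3 was called higher in shUTX cells. It had 52.8, 55.0 and 47.6 CPM in H2O2-exposed, CeO2-exposed and untreated shUTX cells, 24.4, 24.7 and 27.4 CPM in shMLL1 cells, 31.4, 28.8 and 28.1 CPM in shNRF2 cells, and 30.9, 32.7 and 32.2 CPM in shControl cells. The shUTX libraries were above all others, and the shMLL1 libraries were below all others. Its log2 change over shControl was 0.70 ± 0.11 in shUTX (adjusted p = 3.56e-04), and -0.32 ± 0.12 in shMLL1, which did not pass (adjusted p = 0.0844, 95% interval -0.57 to -0.08). The shNRF2 value was -0.12 ± 0.11 (adjusted p = 0.596).

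The antisense RNA SLC9A3-AS1 had the largest change of the 6. Its counts were 50, 44 and 45 in H2O2-exposed, CeO2-exposed and untreated shMLL1 cells, 137, 176 and 126 in shUTX cells, 210, 293 and 205 in shNRF2 cells, and 311, 277 and 303 in shControl cells. In CPM these were 8.53, 6.58 and 6.48 in shMLL1, 24.0, 27.7 and 24.2 in shUTX, 34.7, 37.2 and 28.99 in shNRF2, and 41.4, 38.6 and 46.9 in shControl cells. The derivatives did not overlap and ran shMLL1, shUTX, shNRF2, shControl, low to high. The log2 change over shControl was -2.56 ± 0.16 in shMLL1 (adjusted p = 1.13e-07), -0.74 ± 0.14 in shUTX (adjusted p = 0.00131) and -0.33 ± 0.14 in shNRF2, which did not pass (adjusted p = 0.182).

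The glutamate transporter gene SLC1A3 was lowest in shMLL1 cells. It had 519, 601 and 602 CPM in H2O2-exposed, CeO2-exposed and untreated shMLL1 cells, 618, 725 and 739 CPM in shUTX cells, 887, 1059 and 1119 CPM in shNRF2 cells, and 841, 882 and 797 CPM in shControl cells. The 4 derivatives did not overlap, with shNRF2 highest and shControl next. Its log2 change over shControl was -0.56 ± 0.08 in shMLL1 (adjusted p = 3.68e-04) and -0.28 ± 0.08 in shUTX (adjusted p = 0.0190). The shUTX call was lost when only shUTX and shControl libraries were fitted (adjusted p = 0.162), and when the H2O2 library of shControl (0.1098), the H2O2 library of shUTX (0.0799) or the CeO2 library of shUTX (0.0533) was left out. In shNRF2 cells the value was 0.27 ± 0.08 and did not pass (adjusted p = 0.0677), but it passed without the filter on low values (0.0220) and without the H2O2 library of shControl (0.0390).

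The zinc importer gene SLC39A3 passed in none of the 3 knockdowns. It had 139, 136 and 151 CPM in H2O2-exposed, CeO2-exposed and untreated shMLL1 cells, 116, 120 and 125 CPM in shUTX cells, 118, 98.2 and 106 CPM in shNRF2 cells, and 106, 98.7 and 170 CPM in shControl cells. The untreated shControl library was the highest of all 12, and the other shControl libraries were below every shMLL1 library. Its log2 change over shControl was 0.21 ± 0.13 in shMLL1 (adjusted p = 0.352), -0.03 ± 0.13 in shUTX (adjusted p = 0.895, 95% interval -0.32 to 0.25) and -0.19 ± 0.13 in shNRF2 (adjusted p = 0.449). Without the untreated shControl library the shMLL1 value was 0.44 ± 0.09 and passed (adjusted p = 8.41e-04), and the shUTX and shNRF2 values turned to 0.20 and 0.03.

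The mitochondrial glutamate carrier gene SLC25A22 was higher in shMLL1 and shUTX cells. It had 687, 729 and 759 CPM in H2O2-exposed, CeO2-exposed and untreated shMLL1 cells, 703, 778 and 722 CPM in shUTX cells, 580, 563 and 549 CPM in shNRF2 cells, and 491, 539 and 649 CPM in shControl cells. Every shMLL1 and shUTX library was above every shNRF2 and shControl library, and the shNRF2 libraries lay within the range of shControl. Its log2 change over shControl was 0.38 ± 0.09 in shMLL1 (adjusted p = 0.0116), 0.40 ± 0.09 in shUTX (adjusted p = 0.00437) and 0.02 ± 0.09 in shNRF2 (adjusted p = 0.939). The shMLL1 call was lost without the H2O2 library of shControl (adjusted p = 0.0755) and without any 1 of the 3 shMLL1 libraries (0.0549 to 0.0665), and the shUTX call was lost when only shUTX and shControl libraries were fitted (0.0693).

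**Figure D2:**
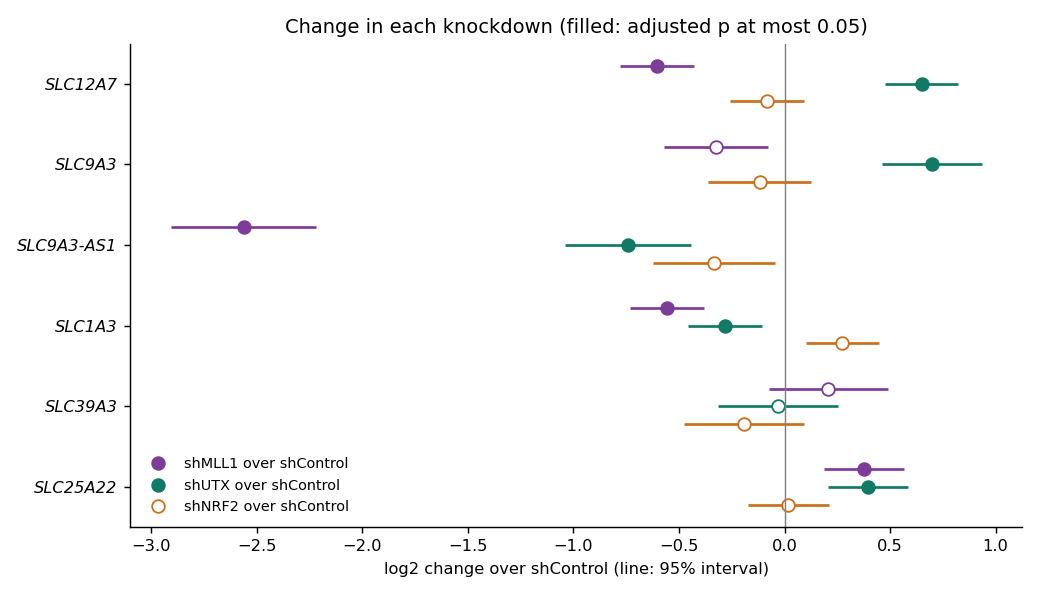
Log2 change of each entry in shMLL1, shUTX and shNRF2 over shControl cells (x axis), with 95% intervals from the edgeR fit as lines, filled points at an adjusted p of at most 0.05 and open points above it. SLC9A3-AS1 in shMLL1 cells lies farthest left at -2.56, and SLC12A7 lies on opposite sides of 0 in shMLL1 and shUTX cells.

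The knockdowns were also set against each other in the same fit. In shUTX against shMLL1 cells 4 of 6 entries passed, all higher, where 18.0% of all entries passed in either direction and 8.5% as higher. All 4 lie on 5p. Of 92 other coding genes of the 5p stretch, 61 passed as higher and 10 as lower, with a median log2 change of 0.62. The part of this shift in the members' values was not tested here or in the next comparisons. SLC12A7 differed by 1.25 ± 0.08, SLC9A3 by 1.02 ± 0.11 and SLC9A3-AS1 by 1.82 ± 0.17 on the log2 scale, with adjusted p of 1.58e-07, 2.12e-05 and 3.11e-06. SLC1A3 was higher by 0.27 ± 0.08 (adjusted p = 0.0304), a call lost without any 1 library of either derivative (0.0713 to 0.121). SLC39A3 had -0.24 ± 0.13 (adjusted p = 0.2503) and passed with only the compared libraries fitted (0.0149) or without the untreated shControl library (0.0186). SLC25A22 had 0.02 ± 0.09 between these knockdowns, with a 95% interval from -0.17 to 0.21.

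In shNRF2 against shMLL1 cells 3 of 6 passed as higher and 1 as lower, against 11.3% of all entries (6.67% higher, 4.62% lower). The 3 called higher lie on 5p. Of 92 other coding genes of the 5p stretch, 58 passed as higher and 7 as lower, with a median log2 change of 0.45. SLC9A3-AS1 was higher by 2.23 ± 0.16 (adjusted p = 9.62e-07), SLC1A3 by 0.83 ± 0.08 (adjusted p = 1.19e-05) and SLC12A7 by 0.52 ± 0.08 (adjusted p = 7.52e-04). SLC25A22 was lower, at -0.36 ± 0.09 (adjusted p = 0.0170), a call lost without any 1 shMLL1 library, the untreated shNRF2 library or the CeO2 library of shNRF2 (0.0740 to 0.102). SLC39A3, at -0.40 ± 0.13, did not pass (adjusted p = 0.0677), and passed with no filter (0.0124), with only the compared libraries fitted (0.00107), and without the untreated (2.84e-04) or CeO2 (0.0445) library of shControl.

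In shNRF2 against shUTX cells 1 of 6 passed as higher and 3 as lower, against 23.4% of all entries (12.7% higher, 10.7% lower). Of 92 other coding genes of the 5p stretch, 15 passed as higher and 32 as lower, with a median log2 change of -0.10. SLC12A7 was lower, at -0.73 ± 0.08, and so was SLC9A3, at -0.82 ± 0.11 (adjusted p = 1.83e-05 and 1.13e-04). SLC1A3 was higher by 0.56 ± 0.08 (adjusted p = 1.97e-04), and SLC25A22 was lower at -0.38 ± 0.09 (adjusted p = 0.00652), a call lost without the CeO2 library of shUTX (0.0546). SLC9A3-AS1 missed the threshold at 0.41 ± 0.14 (adjusted p = 0.0504) and passed with only the compared libraries fitted (0.00164), and without the untreated shControl (0.00950), the CeO2 shControl (0.0387) or the untreated shNRF2 library (0.0311). SLC39A3 had -0.16 ± 0.13 (adjusted p = 0.418) and passed with only the compared libraries fitted (0.0409).

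The 5p genes around these entries were lower in shMLL1 cells as well. Of 92 other coding genes of the 5p stretch, 75 had a log2 change below 0 in shMLL1 against shControl cells, with a median of -0.46, and 59 passed as lower and 8 as higher, while the median over all 7124 coding entries was 0.01. Within this stretch 31 of the 92 were lower than SLC12A7, 35 lower than SLC1A3, 59 lower than SLC9A3 and 5 lower than SLC9A3-AS1. Relative to the median of the stretch, SLC12A7 stood at -0.14, SLC1A3 at -0.10, SLC9A3 at 0.14 and SLC9A3-AS1 at -2.10 on the log2 scale. DNA copy number was not measured, and the part of the shift of the whole stretch in the members' changes was not tested.

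In shUTX cells the same 92 genes had a median of 0.10, with 26 higher and 15 lower. SLC12A7 and SLC9A3 each stood above 85 of the 92, SLC1A3 stood above 18 and SLC9A3-AS1 above 12. In shNRF2 cells the median was -0.02, with 6 higher and 6 lower. SLC25A22 stood above 27 of the 31 other coding genes of the 11p stretch in shMLL1 cells and above 29 in shUTX cells, where the medians were -0.02 and -0.23. SLC39A3 stood above 118 of the 139 others of the 19p stretch in shMLL1 cells, where the median was -0.01.

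The nearest coding genes, which are among the stretch genes just described and so no separate check, showed the same split by arm. Of the 12 neighbours of the 5p entries, up to 2 on each side, 10 were lower and 1 higher in shMLL1 than in shControl cells, and these 11 were the only ones called among 20 neighbours on the 3 arms. EXOC3, an exocyst subunit that overlaps the end of SLC9A3, fell by 0.63 on the log2 scale (SE 0.09, adjusted p = 4.54e-04), and BRD9, a bromodomain protein of chromatin remodelling complexes, had -0.71 ± 0.08 (adjusted p = 3.81e-05). The 1 neighbour that rose was TERT, the catalytic subunit of telomerase, beside SLC12A7, at 0.60 ± 0.17 (adjusted p = 0.0289) and a mean of 15.4 CPM. In shUTX cells 6 of the 12 passed, 4 higher and 2 lower, among them BRD9 at 0.40 ± 0.08 (adjusted p = 0.00174) and TERT at 0.89 ± 0.17 (adjusted p = 0.00125). EXOC3, at -0.20 ± 0.09 in shUTX cells, did not pass (adjusted p = 0.135).

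**Figure D3:**
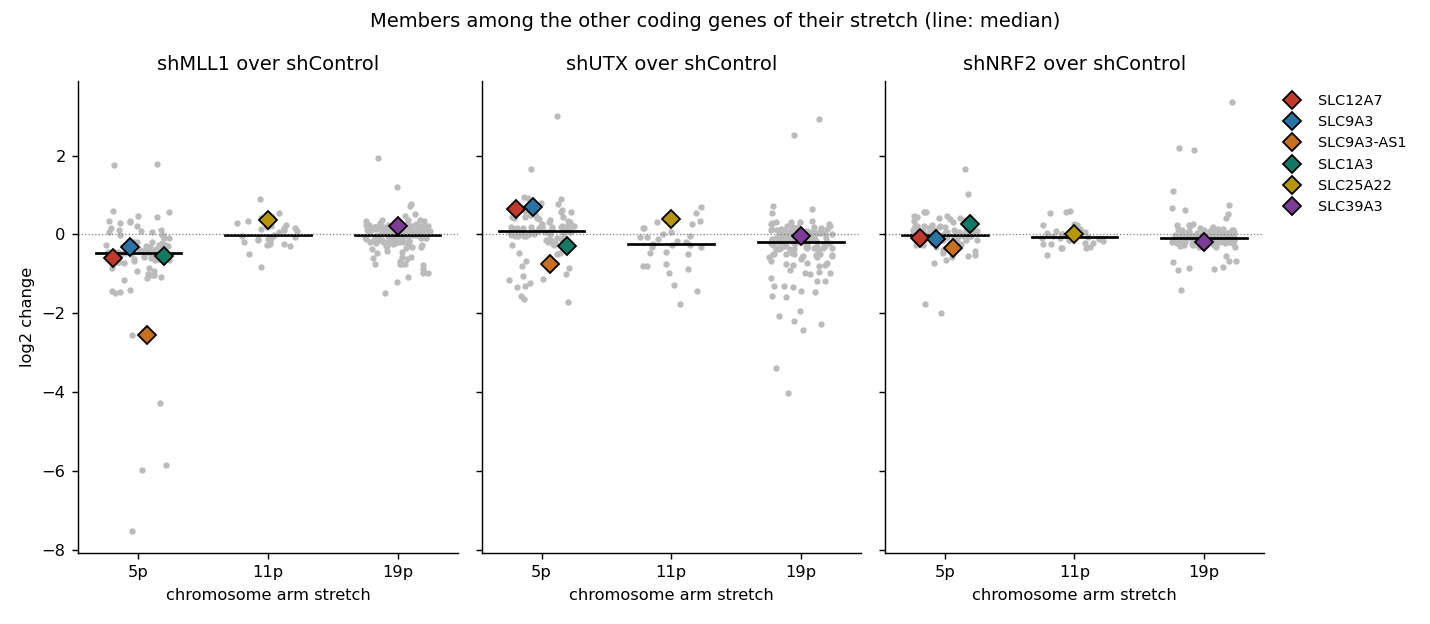
Log2 change (y axis) of the coding genes of the 5p, 11p and 19p stretches in each knockdown over shControl, with grey points for other coding genes, lines at their medians and diamonds for the 6 entries. In shMLL1 cells the 5p median is -0.46 and SLC9A3-AS1 lies at -2.56, while the 11p and 19p medians are -0.02 and -0.01.

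At the SLC9A3 locus the balance between the pair of opposite transcripts differed among the derivatives. SLC9A3-AS1 made up 25.9%, 21.1% and 19.1% of the counts of the pair in H2O2-exposed, CeO2-exposed and untreated shMLL1 cells, and 31.3%, 33.5% and 33.7% in shUTX cells. It made up 52.5%, 56.3% and 50.7% in shNRF2 cells and 57.3%, 54.1% and 59.3% in shControl cells. The shMLL1 and shUTX shares were below those of every shNRF2 and shControl library, and the last 2 groups overlapped. The untreated share had an exact (Clopper-Pearson) 95% interval of 14.3% to 24.8% in shMLL1, 28.9% to 38.7% in shUTX, 45.8% to 55.7% in shNRF2 and 54.9% to 63.6% in shControl cells. The shMLL1 shares were also below every shUTX share. In shMLL1 cells both transcripts were at their lowest mean of the 4 derivatives (7.20 ± 1.16 CPM for SLC9A3-AS1 and 25.5 ± 1.63 CPM for SLC9A3, SD, n = 3). In shUTX cells SLC9A3 was at its highest mean (51.8 ± 3.80 CPM), with SLC9A3-AS1 at 25.3 ± 2.08 CPM, and in shControl cells the means were 31.9 ± 0.923 and 42.3 ± 4.22 CPM (SD, n = 3).

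**Figure D4:**
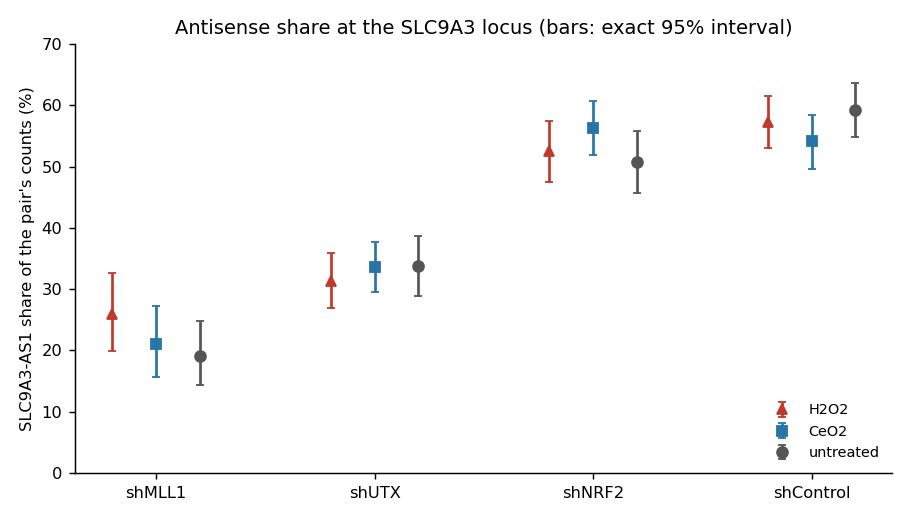
Share of SLC9A3-AS1 in the summed counts of SLC9A3-AS1 and SLC9A3 (y axis, %) in each library, by derivative and treatment, with exact 95% intervals for counting error as bars. The shMLL1 shares lie between 19.1% and 25.9% and the shControl shares between 54.1% and 59.3%.

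Exposure was tested across the 4 derivatives in the same model, to ask whether H2O2 or CeO2 moved these RNAs. After H2O2, 0 of the 6 entries passed with edgeR and 0 with DESeq2, and 2 had an unadjusted p under 0.05. Among all 10800 entries none passed with edgeR (0.0%), 152 passed with DESeq2 and 2102 had an unadjusted p under 0.05. After CeO2, 0 of 6 passed with either tool, where 0.0185% of all entries did with edgeR. By edgeR, 1 of the 6 had an unadjusted p under 0.05, as had 1889 of the 10800 entries. Between H2O2 and CeO2, 0 of 6 passed with either tool, against 0.037% of all entries with edgeR. Here 1 of the 6 had an unadjusted p under 0.05 by edgeR, as had 670 of the 10800 entries.

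The values of the single entries after exposure were small. SLC12A7 had a log2 change of 0.20 ± 0.07 after H2O2 (adjusted p = 0.172) and 0.14 ± 0.07 after CeO2 (adjusted p = 0.322). SLC1A3 had -0.18 ± 0.07 after H2O2 (adjusted p = 0.199) and 0.01 ± 0.07 after CeO2 (adjusted p = 0.968), and its H2O2 value was -0.26 and passed without the untreated shControl library (adjusted p = 0.0451). SLC39A3 had -0.20 ± 0.12 after H2O2 (adjusted p = 0.348) and -0.29 ± 0.12 after CeO2 (adjusted p = 0.243), and these values were -0.035 and -0.12 without the untreated shControl library. The other 3 lay between -0.13 and 0.07 after either agent.

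Within each derivative, the exposed library was divided by the untreated one, with an exact 95% interval that covers counting error only. SLC12A7 was above 1 in all 8 ratios, and 6 of the 8 intervals excluded 1. The H2O2 and CeO2 ratios of a derivative share its untreated library, so the 8 are not separate observations. After H2O2 the SLC12A7 ratio was 1.13 in shMLL1, 1.22 in shUTX, 1.16 in shNRF2 and 1.09 in shControl cells, and after CeO2 it was 1.22, 1.08, 1.03 and 1.08 in the same order of derivatives. These steps were alike in direction and smaller than the differences of shMLL1 and of shUTX from shControl cells.

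SLC1A3 had ratios on both sides of 1 after H2O2, each from 1 exposed and 1 untreated library. Its ratio was 0.863 in shMLL1 cells (interval 0.823 to 0.904), 0.837 in shUTX cells (0.800 to 0.876), 0.793 in shNRF2 cells (0.765 to 0.821) and 1.06 in shControl cells (1.02 to 1.09). It was thus below 1 in the 3 knockdowns and above 1 in shControl. The exploratory test of a changed response, described below, gave SLC1A3 log2 values of -0.22 ± 0.12 in shMLL1, -0.25 ± 0.12 in shUTX and -0.32 ± 0.12 in shNRF2 cells. None of these passed with the filter on low values. After CeO2 the SLC1A3 ratio was 0.998 in shMLL1, 0.981 in shUTX, 0.946 in shNRF2 and 1.11 in shControl cells.

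For SLC39A3 and SLC25A22 the shControl libraries stood apart. The SLC39A3 ratio in shControl cells was 0.624 after H2O2 (interval 0.569 to 0.684) and 0.580 after CeO2 (0.527 to 0.638), while in the knockdowns it lay between 0.901 and 1.11. The SLC25A22 ratio in shControl cells was 0.756 after H2O2 (0.723 to 0.790) and 0.830 after CeO2 (0.795 to 0.868), while in the knockdowns it lay between 0.905 and 1.08. These intervals take the TMM-adjusted sizes as exact, and the untreated shControl library had the factor 0.914. Scaled by total counts alone, H2O2-exposed, CeO2-exposed and untreated shControl cells had 502, 563 and 593 CPM of SLC25A22. For SLC39A3 these values were 109, 103 and 155 CPM. For SLC9A3 none of the 8 intervals excluded 1. For SLC9A3-AS1 those of CeO2 in shNRF2 (ratio 1.28) and in shControl cells (0.823) did. By total counts alone, SLC9A3-AS1 had 40.3 CPM in CeO2-exposed and 42.8 CPM in untreated shControl cells.

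**Figure D5:**
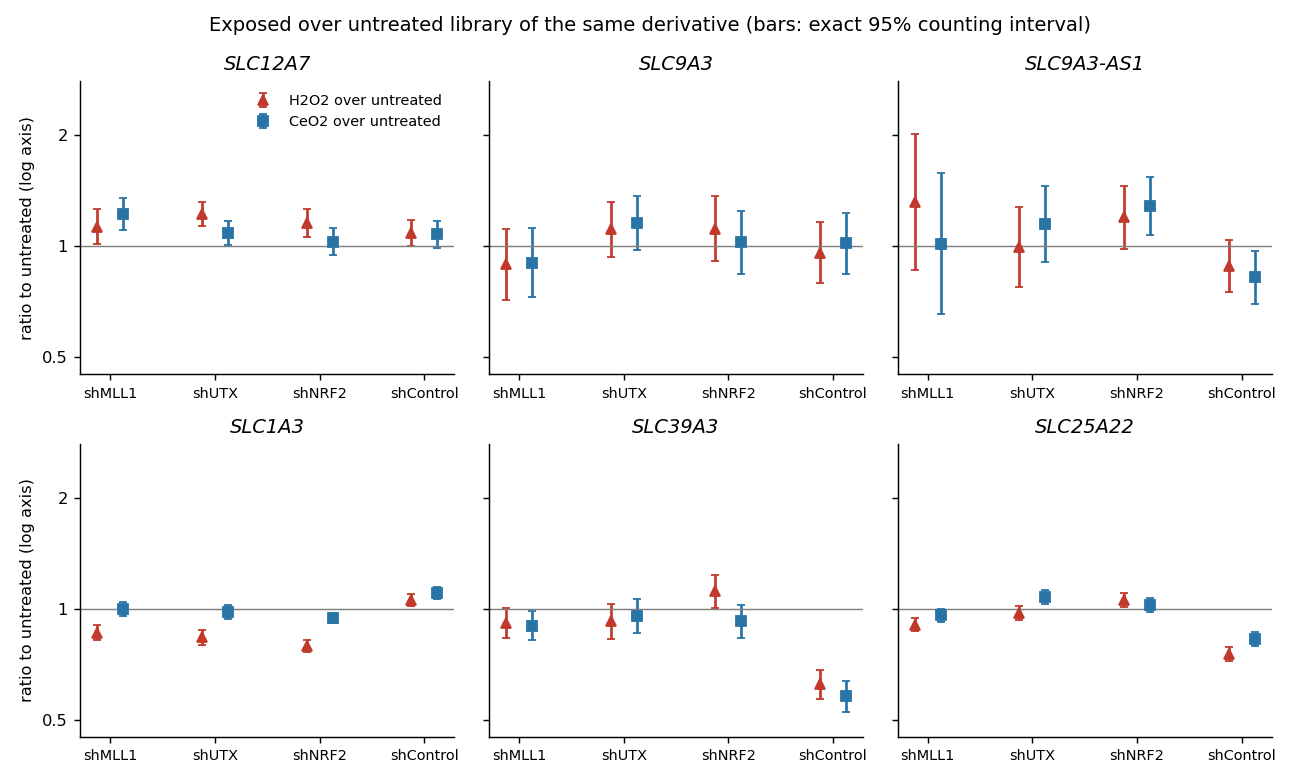
Ratio of the exposed to the untreated library of the same derivative (log axis) for the 6 entries, with H2O2 as triangles, CeO2 as squares and exact 95% counting intervals as bars. SLC39A3 in shControl cells lies at 0.624 and 0.580, below its ratios in the 3 knockdowns, and SLC12A7 lies above 1 throughout.

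A model with 1 exposure term for each knockdown, which leaves 3 residual degrees of freedom and is exploratory, tested whether the mean response to the agents differed from that of shControl cells. In shMLL1 cells 0 of 6 entries passed with edgeR and 0 with DESeq2, against 0.648% of all entries by edgeR. There 1 of the 6 had an unadjusted p under 0.05 by edgeR, as had 1715 of the 10800 entries. In shUTX cells 2 of 6 passed, both higher, against 14.4% of all entries (6.8% higher). In shNRF2 cells 2 of 6 passed, both higher, against 16.6% of all entries (8.02% higher). SLC39A3 differed by 0.64 ± 0.15 in shUTX (adjusted p = 0.00739) and by 0.75 ± 0.15 in shNRF2 cells (adjusted p = 0.00217), and its shMLL1 value of 0.59 ± 0.15 did not pass (adjusted p = 0.0616). SLC25A22 differed by 0.37 ± 0.12 in shUTX (adjusted p = 0.0400) and by 0.39 ± 0.12 in shNRF2 cells (adjusted p = 0.0268), and both calls were lost without the filter on low values (0.0867 and 0.0528). SLC1A3 had -0.32 ± 0.12 in shNRF2 cells and did not pass (adjusted p = 0.0630), but passed with no filter (0.0300).

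These differences rest on 1 untreated shControl library, and other genes of the same stretches moved with them. The 139 other coding genes of the 19p stretch had a median changed response of 0.36 in shUTX and 0.42 in shNRF2 cells, and the 31 others of the 11p stretch had medians of 0.51 and 0.53. All coding entries had medians of 0.01 in both. SLC39A3 stood above 111 of the 139 in shUTX and above 115 in shNRF2 cells, whereas SLC25A22 stood above 7 of the 31 and above 8. The part of this shift in the members' values was not tested.

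Over the 12 libraries, patterns were compared by Pearson's r of log2(CPM + 1), as a description over libraries that share 4 derivatives and their arm-wide shifts. SLC12A7 and SLC9A3 ran together (r = 0.94), and SLC9A3-AS1 was closer to SLC1A3 (r = 0.76) than to SLC9A3 (r = 0.37). The genes of the matched stretches most like SLC12A7 were BRD9 (0.97), MARCHF6 (0.96) and NSUN2 (0.95), and those most like SLC9A3 were NSUN2 (0.96), SLC12A7 (0.94) and NUP155 (0.90). SLC9A3-AS1 was most like ENSG00000248994 (0.97), ANKH (0.96) and WDR70 (0.95), and SLC1A3 most like RETREG1 (0.86), SEMA5A (0.85) and SNHG18 (0.85). All of these lie on 5p. SLC39A3 was most like FAM174C (0.97), POLR2E (0.93) and CDC34 (0.93), all on 19p, and SLC25A22 was most like POLR1E (0.92) on 9p, PTDSS2 (0.90) on 11p and MRPS30 (0.90) on 5p.

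The matched stretches hold 9 other entries whose symbol begins like that of a solute carrier, of which 1 passed the filter and 3 had no count in any library. Those with a name of a coding transporter, SLC6A3 (dopamine), SLC6A18 and SLC6A19 (neutral amino acids), SLC45A2 (melanosomes) and SLC24A2 (a potassium-dependent sodium-calcium exchanger), had at most 2 counts in a library. SLC1A3-AS1, antisense to SLC1A3, had at most 6. The entry that passed is the pseudogene SLC4A1APP1 on 9p, with a mean of 8.87 CPM and at most 129 counts in a library. Its counts could be split with its parent gene. It passed in none of the 9 comparisons of the additive model, and its changed response in shNRF2 cells was -4.42 ± 0.99 (adjusted p = 0.00469). That changed response comes from the exploratory model and rests on 1 untreated library of each derivative. The 5 coding members were thus the only coding entries with such a symbol in these stretches above the filter. Transporters with other symbols were not looked for.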

How the data were processed

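RNA-seq of 12 HaCaT libraries was analysed. The submitters' processing notes name the build GRCh38 and the tools HISAT2 2.2.1 and HTSeq 0.11.1, besides Trimmomatic 0.39 and SAMtools 1.12. Settings, strand use and annotation are not given in the labels or notes used. Deposited values are the authors' raw read counts per Ensembl gene, in 2 tables that share the untreated libraries and differ in 1 cell; untreated counts came from the H2O2 table. Depth was 5388335 to 7670446 counts per library. GENCODE 29 (58298 of 61498 identifiers matched) gave coordinates, types and exon lengths. Stretches where names match reads were found with a hidden Markov model of whether each of 739 genes that every cell uses reached 30 CPM. Those with a median of at least 150 CPM for these genes were used (4 stretches, 1425 entries with the mitochondrial genome).

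The filter kept 10800 entries, those that reached 1 CPM in 3 or more libraries. They were scaled by TMM and fitted with edgeR 4.0.16 (R 4.3.3; quasi-likelihood, two-sided, Benjamini-Hochberg threshold 0.05). The additive model of derivative and treatment had 6 residual degrees of freedom. All adjusted p-values come from edgeR unless DESeq2 1.42.0 is named. Intervals of ratios (exact conditional binomial, 95%) and of shares cover counting error only. Alternatives were RLE scaling, no filter beyond a count above 0, DESeq2, the compared libraries only, the CeO2 table's untreated counts, and each library left out. The code was tested on simulated counts. Promoter windows are RefSeq's (all 6 entries matched).

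Members, lists and the stretch check were chosen with earlier results of these data known, and the comparison with whole stretches after seeing the data. Named beside the members are the 2 nearest kept coding genes on each side, other solute carrier symbols of the stretches, and the 3 most correlated matched entries of at least 5 CPM.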

Additional observations from a re-analysis of the deposited data

Results flagged for a closer look

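The response to exposure differed from that of shControl cells by a test of the difference itself for 2 of the 6 entries, in 2 of the knockdowns, where 14.4% (shUTX) and 16.6% (shNRF2) of all entries passed. The other coding genes of the 19p stretch had a median difference in mean response to the agents of 0.36 in shUTX and 0.42 in shNRF2 cells (log2 scale). For SLC39A3 this difference was 0.64 in shUTX and 0.75 in shNRF2 cells. For SLC25A22 it was 0.37 in shUTX and 0.39 in shNRF2 cells, below the medians of the other coding genes of the 11p stretch (0.51 and 0.53), and both calls were lost with no filter (adjusted p = 0.0867 and 0.0528, edgeR). In shControl cells both genes were lower in the exposed libraries than in the 1 untreated library, on which these differences rest. The part of the stretch-wide shift in the values of both genes was not tested. No group of libraries held 4 samples of 1 combination, so single libraries far from the rest were not looked for.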

How the results depend on the processing

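Of 990 values of the 6 entries under alternatives, 915 kept their direction and side of the threshold, 16 gained a call, 23 lost one and 36 changed sign. Where a sign changed, the value was called in neither setting. The labels give no replicate numbers that link libraries across groups, so libraries were matched only by derivative and treatment. The additive model holds both as terms, so exposures were compared within derivatives and derivatives within treatments. The changed response was not run with libraries left out, since it rests on 1 untreated shControl library. Depth limits SLC9A3-AS1 most, at 44 to 50 counts in shMLL1 libraries. The cause of the moves below was not tested.

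With only the compared libraries fitted, called entries numbered 1427 for shUTX over shControl (with 3 of the 6), 154 for shNRF2 over shControl, 2955 for shUTX over shMLL1, 1991 for shNRF2 over shMLL1, 4351 for shNRF2 over shUTX, 3 for H2O2, 0 for CeO2 and 120 for H2O2 over CeO2. With no filter beyond a count above 0 they numbered 907 for shNRF2 over shControl (with 1 of the 6, SLC1A3), 651 for H2O2, 543 for CeO2, 105 for H2O2 over CeO2 and 218 for the changed response in shMLL1, and 1 of the 6 was called in that of shUTX. With DESeq2 they numbered 152 for H2O2, 44 for CeO2, 21 for H2O2 over CeO2, and 676 and 686 for the changed response in shUTX and shNRF2.

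With each library left out in turn, called entries ranged from 667 to 1941 for shMLL1 over shControl, 257 to 830 for shNRF2 over shControl, 1169 to 2989 for shUTX over shMLL1, 598 to 2251 for shNRF2 over shMLL1, 1652 to 3604 for shNRF2 over shUTX, 0 to 43 for H2O2, 0 to 29 for CeO2 and 0 to 94 for H2O2 over CeO2. Calls among the 6 ranged from 0 to 1 for shNRF2 over shControl and for H2O2. They ranged from 3 to 5 for shMLL1 over shControl, shUTX over shMLL1, shNRF2 over shMLL1 and shNRF2 over shUTX. For shUTX over shControl the range was 4 to 5.

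Sign changes with a library left out gave these log2 ranges. SLC39A3 ranged from -0.15 to 0.20 for shUTX over shControl, -0.31 to 0.028 for shNRF2 over shControl and -0.0040 to 0.17 for H2O2 over CeO2. SLC25A22 ranged from -0.058 to 0.12 for shNRF2 over shControl, -0.029 to 0.079 for shUTX over shMLL1 and -0.10 to 0.029 for CeO2. SLC9A3 ranged from -0.043 to 0.082 for H2O2, -0.032 to 0.092 for CeO2 and -0.053 to 0.031 for H2O2 over CeO2. SLC9A3-AS1 ranged from -0.022 to 0.21 for H2O2, -0.024 to 0.21 for CeO2 and -0.10 to 0.083 for H2O2 over CeO2, and SLC1A3 from -0.066 to 0.048 for CeO2. In other settings, SLC1A3 after CeO2 was -0.00148 with RLE and -0.00149 with DESeq2. SLC9A3-AS1 for H2O2 over CeO2 was -0.00144 with RLE, -0.00700 with no filter and -0.00662 with the compared libraries only. The changed response of SLC12A7 in shNRF2 cells was -0.031 with no filter.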
